A study of Mus musculus with 10 samples.

Results

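The bile acid synthesis enzymes were 10 genes of the 24421 in the count table, chosen by symbol for their known place in the pathway: Cyp7a1, Cyp8b1, Hsd3b7, Akr1d1, Cyp27a1, Cyp7b1, Cyp39a1, Amacr, Slc27a5 and Baat. Hepatic mRNA was sequenced from 10 male wild-type C57BL/6 mice (C57BL/6 J in the methods), fed ad libitum and sequenced as 1 library per mouse. The mice were aged 21 weeks by the labels, and the methods give a slightly lower age. The Chow group (n = 5) ate standard chow, and the TM5614 group (n = 5) ate chow that carried TM5614, an orally active small molecule inhibitor of plasminogen activator inhibitor 1 (PAI-1), at 20 mg/kg/day for 10 days. The comparison asked how inhibiting PAI-1 changes hepatic gene expression. All 10 genes passed the filter on low counts, with 207 to 15572 reads per gene and library.

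Bile acids are made from cholesterol in hepatocytes, and their synthesis is the main route by which cholesterol is broken down. The classic pathway starts with Cyp7a1 at the sterol ring, and Cyp8b1 decides whether cholic acid, with its extra hydroxyl group, is formed. The alternative pathway starts with oxidation of the side chain by Cyp27a1, followed by Cyp7b1. Hsd3b7 and Akr1d1 then rework the ring in both pathways, peroxisomal enzymes including Amacr shorten the side chain, and Slc27a5 and Baat couple the finished acid to taurine or glycine. Synthesis is held in check by bile acids through the receptor FXR (Nr1h4) and follows the time of day.

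Liver identity was clear, since 7 hepatocyte markers found in the table (such as albumin and transthyretin) summed to 109000 to 123000 CPM (counts relative to the scaled library total) in Chow and 95000 to 112000 CPM in TM5614. Library totals ran from 6398335 to 10874955 counts, and the 10 enzymes took between 0.355% and 0.424% of them. Chow replicate 2 stood apart: its mean correlation with its own group over all tested genes was 0.927, and 46% of its deviation from the median library followed the GC content and length of transcripts, against 0.763% to 11.5% in the other 9 libraries. TM5614 replicate 2 held 23166 counts of 8 skeletal muscle markers, TM5614 replicate 3 held 417, and every other library held 40 or fewer. Results are therefore also given without these replicates where they move. In whole liver, fewer cells of a type and less RNA per cell cannot be told apart.

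No enzyme passed the test between TM5614 and Chow in all 10 libraries (0 of 10 at an adjusted p of 0.05, edgeR quasi-likelihood with Benjamini-Hochberg adjustment over 11092 genes), beside a background of 4.50% of all genes tested. At an unadjusted p under 0.05 there were 4 of 10 (Cyp7a1, Slc27a5, Cyp8b1 and Cyp27a1), beside 20.4% of all genes. DESeq2 called 1, Cyp7a1, beside a background of 8.14%. Of the 10 estimates, 6 were higher and 4 lower in TM5614. Their median log2 fold change was 0.09, and that of all genes tested was 0.01. Of the 10 enzymes, 0 had groups that did not overlap in CPM, beside 8.93% of all genes tested. The libraries of each gene are shown in the plot of CPM by library.

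**Figure D1:**
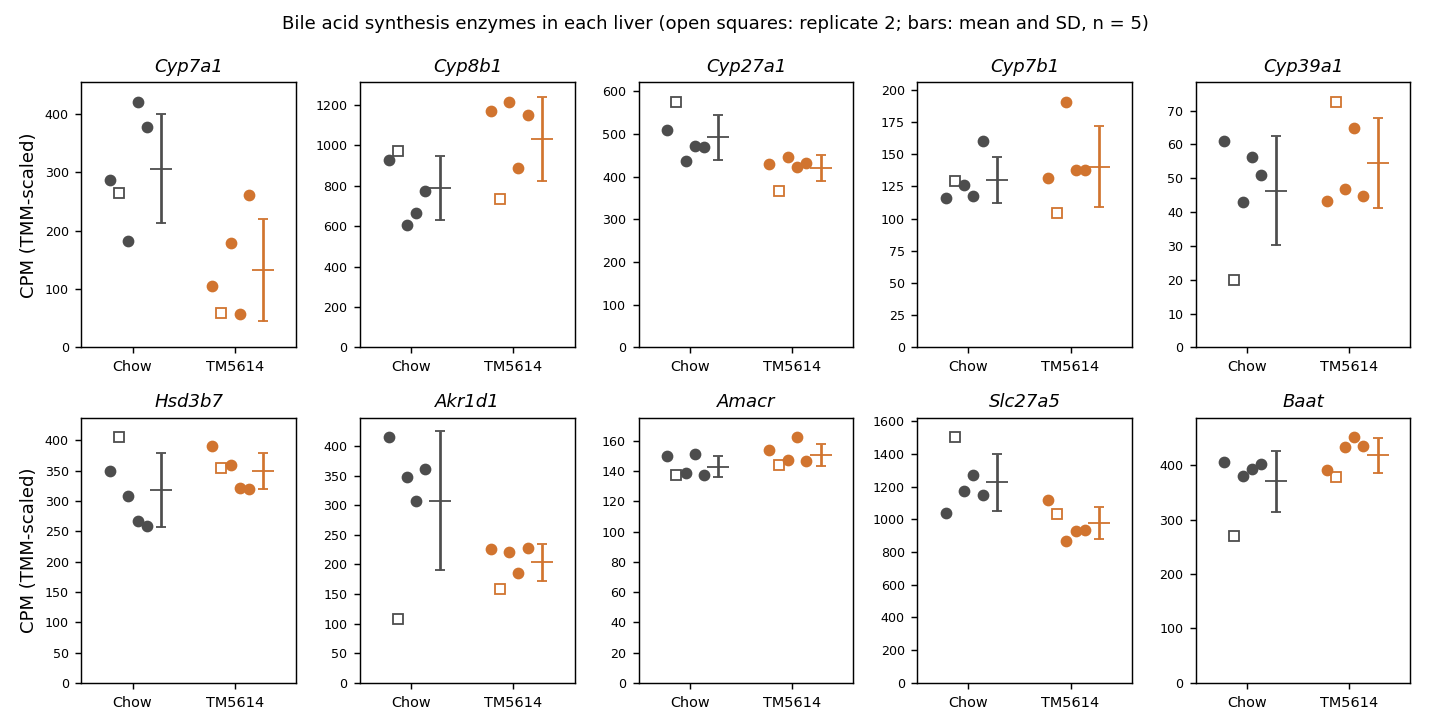
CPM of each of the 10 enzymes (vertical axis, from 0) in every Chow and TM5614 liver, with the mean and SD of each group (n = 5) and replicate 2 as an open square. Cyp7a1 lay between 182.4 and 420.2 CPM in Chow and between 56.56 and 261.1 CPM in TM5614, and the open square of Chow is the lowest Chow value for Akr1d1, Cyp39a1 and Baat.

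Cyp7a1 (chr4:6265612-6275633, minus strand, GRCm38), the rate-limiting enzyme of the classic pathway, had the largest estimated difference of the 10. It measured 287.4, 264.7, 182.4, 420.2 and 376.9 CPM in Chow replicates 1 to 5 and 106.0, 59.3, 179.5, 56.56 and 261.1 CPM in TM5614 replicates 1 to 5. In CPM, 4 of the 5 TM5614 livers were below every Chow liver, and TM5614 replicate 5 lay above Chow replicate 3 alone. The means were 306 ± 94.1 CPM and 132 ± 87.4 CPM (SD, n = 5 each). The log2 fold change was -1.21 (SE 0.40, 95% interval -2.08 to -0.34), a change of -56.7%, with an adjusted p of 0.119 in edgeR. The spread within TM5614 was wide, with a coefficient of variation of 66.0% against 30.7% in Chow. Without TM5614 replicate 5 the log2 fold change was -1.61 and the adjusted p 0.0374 (background 3.06%). DESeq2 gave an adjusted p of 0.0309 for all 10 libraries. After correction for GC content and length, an alternative chosen after seeing the data, the log2 fold change was -1.48 (adjusted p = 0.0456, background 6.46%). Over all 22 alternatives the estimate stayed negative, from -1.62 to -1.01, with adjusted p-values from 0.0309 to 0.229.

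Cyp8b1 (chr9:121914356-121916305, minus strand), the sterol 12-hydroxylase, had a higher estimate in TM5614 while that of Cyp7a1 was lower. Cyp8b1 measured 926.3, 969.8, 605.9, 663.2 and 776.1 CPM in the Chow replicates and 1167, 735.6, 1214, 889.0 and 1151 CPM in the TM5614 replicates. TM5614 replicates 1, 3 and 5 were above every Chow liver, and TM5614 replicate 2 was the lowest of its group. The log2 fold change was 0.39 (SE 0.17, 95% interval 0.01 to 0.77), or 30.8%, with an adjusted p of 0.234 in edgeR. With both replicates numbered 2 left out, it was 0.57 (SE 0.14) with an adjusted p of 0.0218. A fit that gives less weight to deviating libraries (limma-voom with sample quality weights) gave 0.55 and an adjusted p of 0.0228 (background 12.5%). Of the 22 alternatives, these 2 alone called Cyp8b1, and DESeq2 gave an adjusted p of 0.217. Over all 22 the estimate ranged from 0.31 to 0.57, with adjusted p-values from 0.0218 to 0.448.

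Akr1d1 (chr6:37530173-37568815, plus strand), the steroid 5-beta-reductase that gives bile acids their bent ring, was lower in TM5614 once Chow replicate 2 was left out. It measured 414.8, 108.5, 348.2, 307.4 and 361.4 CPM in the Chow replicates and 226.0, 157.8, 221.8, 184.8 and 228.1 CPM in the TM5614 replicates. The value of 108.5 CPM in Chow replicate 2 was the lowest of all 10 libraries, and each of the other 4 Chow livers was above each TM5614 liver. With all libraries, the log2 fold change was -0.60 (SE 0.28, 95% interval -1.20 to 0.01) and the adjusted p 0.251 in edgeR. Without Chow replicate 2 it was -0.82 (SE 0.13, 95% interval -1.09 to -0.55), with an adjusted p of 0.00168, beside a background of 9.24% called. Groups then did not overlap, as for 12.1% of all genes tested. With both replicates numbered 2 left out, Akr1d1 and Cyp8b1 were the 2 of 10 enzymes called (background 11.1%), and Akr1d1 gave -0.74 with an adjusted p of 0.00117. With all 10 libraries, limma-voom gave an adjusted p of 0.00226 and DESeq2 0.199. The GC content and length correction with the replicate block, chosen after seeing the data, gave 0.0173 in edgeR. Of the 22 alternatives 4 called Akr1d1. Its estimate ranged from -0.82 to -0.47, with adjusted p-values from 0.00117 to 0.408.

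Stretches of 250 bases before the start site of Cyp8b1 and Akr1d1 are shown because these are the enzymes whose calls turned, in opposite directions, on the replicates numbered 2. Sequences are from RefSeq (GRCm38.p6), 5′ to 3′ on the strand of the gene, from chr9:121916306-121916555 (minus strand) and chr6:37529923-37530172 (plus strand). RefSeq promoters were matched for 4 of the 10 enzymes, the other 2 being Cyp27a1 and Hsd3b7. Capitals mark matches on either strand to any of 6 searched motifs: CAAGGNCA, the extended site of LRH-1 (Nr5a2), which holds AGGTCA where N is T; AGGTCA, the core site of nuclear receptors; TTANGTAA, the D-box bound by Dbp; CACGTG, the E-box; GTTAAT, a core site of HNF1; and TATAAA, the TATA box.
Cyp8b1: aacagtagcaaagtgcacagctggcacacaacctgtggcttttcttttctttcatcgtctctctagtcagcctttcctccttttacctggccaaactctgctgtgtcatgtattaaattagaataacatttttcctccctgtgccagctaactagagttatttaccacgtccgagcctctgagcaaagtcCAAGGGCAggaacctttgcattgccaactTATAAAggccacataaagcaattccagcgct
Akr1d1: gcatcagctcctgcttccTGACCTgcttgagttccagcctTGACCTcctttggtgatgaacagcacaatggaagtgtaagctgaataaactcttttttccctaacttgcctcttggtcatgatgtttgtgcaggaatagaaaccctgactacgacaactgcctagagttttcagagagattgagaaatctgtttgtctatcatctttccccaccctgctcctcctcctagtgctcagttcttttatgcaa
Cyp8b1 held CAAGGNCA at 60 to 53 bases before the start, as 5.53% of the 32851 promoters searched hold it in a window of this length, and a TATA box at 31 to 26 bases (12.4% of promoters). Akr1d1 held AGGTCA on the opposite strand at 232 to 227 and at 210 to 205 bases before the start. Of the promoters searched, 14% held AGGTCA at all, on either strand, and the share with repeated sites was not counted. None of the 6 motifs was found in the windows of Cyp27a1 and Hsd3b7. A match of letters is a description of the sequence only.

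**Figure D2:**
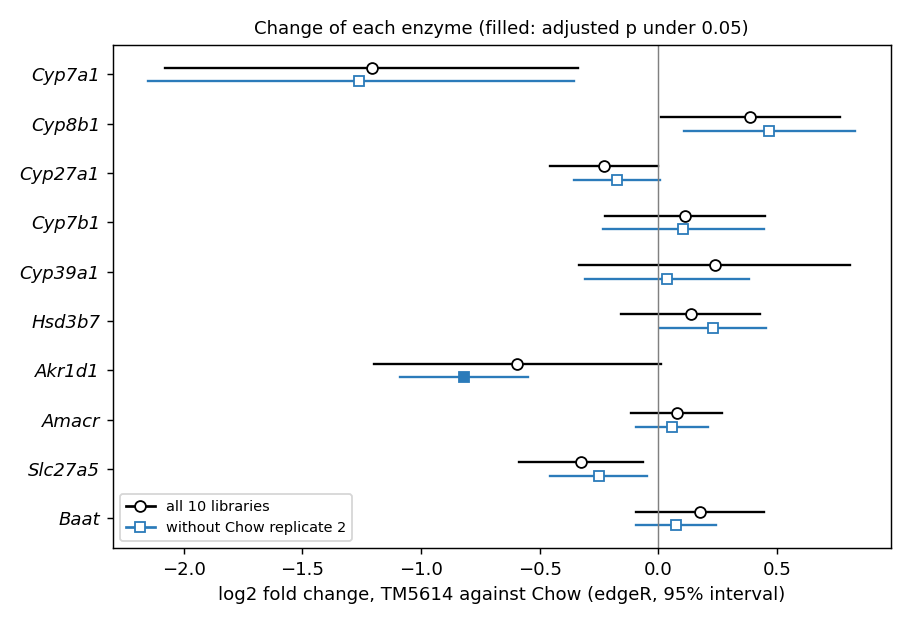
Log2 fold change of each enzyme, TM5614 against Chow, with its 95% interval in edgeR, for all 10 libraries (circles) and without Chow replicate 2 (squares); filled symbols have an adjusted p under 0.05. Akr1d1 without Chow replicate 2 (-0.82, adjusted p 0.00168) is the one filled symbol, and the interval of Cyp7a1 lies below 0 in both fits.

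Hsd3b7 (chr7:127800604-127803802, plus strand), which oxidises the sterol ring after hydroxylation, measured 318 ± 60.8 CPM in Chow and 349 ± 29.7 CPM in TM5614 (SD, n = 5). Its log2 fold change was 0.14 (SE 0.14, 95% interval -0.16 to 0.43, adjusted p = 0.587 in edgeR). Its exons share 62.0% of their bases with Gm49388 on the same strand and 62.4% with 9430064I24Rik on the opposite strand. The use of strand in counting is not stated in the sources used here, so the level of Hsd3b7 is uncertain.

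In the alternative pathway, Cyp27a1 (chr1:74713574-74737892, plus strand), the mitochondrial side-chain hydroxylase, varied little within groups. It measured 508.3, 575.0, 436.2, 470.9 and 469.7 CPM in Chow and 429.1, 366.8, 447.2, 422.9 and 432.4 CPM in TM5614. Each group's extreme value came from replicate 2, the highest in Chow and the lowest in TM5614. The log2 fold change was -0.23 (SE 0.11, adjusted p = 0.243 in edgeR). It was -0.13 (SE 0.08, adjusted p = 0.337) with both replicates numbered 2 left out and -0.10 (SE 0.11, adjusted p = 0.627) after correction for GC content and length.

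Cyp7b1 (chr3:18071950-18243338, minus strand), the oxysterol 7-hydroxylase of the alternative pathway, measured 130 ± 17.7 CPM in Chow and 140 ± 31.2 CPM in TM5614 (log2 fold change 0.11, SE 0.16, 95% interval -0.23 to 0.45, adjusted p = 0.704 in edgeR). Its direction turned without TM5614 replicate 3, the highest library at 190.4 CPM, where the log2 fold change was -0.02. Cyp39a1 (chr17:43667425-43751431, plus strand), an oxysterol hydroxylase of a minor branch, measured 61.0, 20.0, 43.1, 56.2 and 51.0 CPM in Chow and 43.4, 72.5, 46.8, 64.8 and 44.6 CPM in TM5614. The replicates numbered 2 were the lowest and the highest of all 10 libraries. Its log2 fold change of 0.24 (SE 0.26, adjusted p = 0.627) became 0.04 (SE 0.16) without Chow replicate 2 and -0.08 (SE 0.14) without either replicate 2.

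Of the enzymes that finish the molecule, Slc27a5 (chr7:12988346-12998192, minus strand), the ligase that activates bile acids with coenzyme A, had a lower estimate in TM5614. It measured 1041, 1502, 1172, 1273 and 1148 CPM in Chow and 1121, 1033, 869.5, 929.2 and 936.7 CPM in TM5614. All TM5614 livers but replicate 1 lay below every Chow liver. The log2 fold change was -0.33 (SE 0.12, 95% interval -0.59 to -0.07), or -20.3%, with an adjusted p of 0.154 in edgeR. Over the 22 alternatives it ranged from -0.39 to -0.24, with adjusted p-values from 0.0704 to 0.335. Baat (chr4:49489422-49506557, minus strand), which attaches taurine or glycine, measured 370 ± 56.7 CPM in Chow and 418 ± 31.3 CPM in TM5614 (log2 fold change 0.18, SE 0.12, adjusted p = 0.442). Its lowest value, 270.3 CPM, was again in Chow replicate 2, and the log2 fold change was 0.07 (SE 0.08) without that library. Amacr (chr15:10981756-10996626, plus strand), the racemase that prepares side chains for peroxisomal oxidation, was the steadiest of the 10. It measured 143 ± 6.93 CPM in Chow and 151 ± 7.31 CPM in TM5614, a coefficient of variation of 4.84% and 4.85%, with a log2 fold change of 0.08 (SE 0.09, 95% interval -0.11 to 0.27, adjusted p = 0.640).

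The deviation of Chow replicate 2 from the median of the other 4 Chow livers was most negative for Akr1d1, Cyp39a1 and Baat, whose transcripts have a low GC content. On the log2 CPM scale it was -1.71 for Akr1d1 (40.9% GC), -1.41 for Cyp39a1 (43.7% GC) and -0.56 for Baat (44.9% GC). It was 0.29 for Cyp27a1 (53.5% GC), 0.37 for Slc27a5 (53.1% GC), 0.44 for Cyp8b1 (54.8% GC) and 0.50 for Hsd3b7 (53.9% GC). Cyp7a1, with the lowest GC content of 39.7%, deviated by -0.31, and Cyp7b1, at 42.5% GC, by 0.09. Pearson's r between deviation and GC content was 0.737 over the 10 genes, which all come from 1 library and are not independent replicates. Over the same genes r lay between -0.807 (Chow replicate 5) and 0.513 (TM5614 replicate 1) in the other 9 libraries. The size of the deviations differed more, with an SD over the 10 genes of 0.78 in Chow replicate 2, 0.23 in Chow replicate 5 and 0.19 in TM5614 replicate 1. The part of GC content in any single gene's value was not tested.

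**Figure D3:**
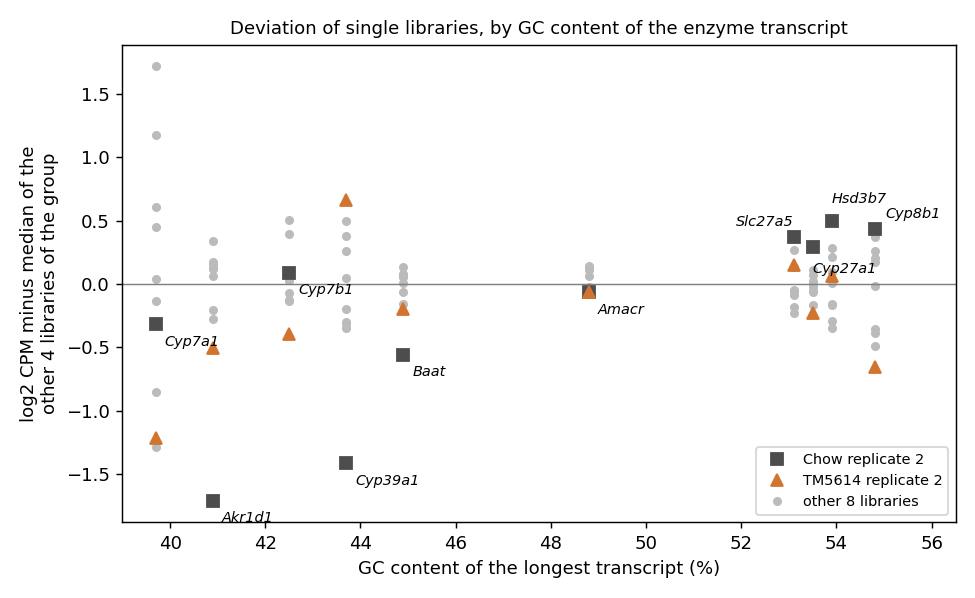
Deviation of each library from the median of the other 4 libraries of its group (log2 CPM, vertical axis) against the GC content of the longest transcript of each enzyme (percent, horizontal axis). Gene names stand beside the squares of Chow replicate 2, which reach -1.71 for Akr1d1 and 0.50 for Hsd3b7; triangles are TM5614 replicate 2 and grey circles the other 8 libraries.

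Levels per transcript length were compared with the FPKM values. In Chow, Slc27a5 (520 ± 73.5 FPKM, SD, n = 5) and Cyp8b1 (399 ± 81.0 FPKM) led, followed by Cyp27a1 (257 ± 27.8), Baat (188 ± 28.7), Hsd3b7 (172 ± 33.3), Akr1d1 (113 ± 43.3), Cyp7a1 (72.5 ± 22), Cyp7b1 (59.2 ± 8.01), Amacr (54.9 ± 2.64) and Cyp39a1 (14.7 ± 5.13 FPKM). Within single Chow livers, Cyp8b1 was above Cyp27a1, Cyp27a1 above Baat, Hsd3b7 above Akr1d1 and Amacr above Cyp39a1 in 5 of 5. Slc27a5 was above Cyp8b1, Baat above Hsd3b7, Akr1d1 above Cyp7a1 and Cyp7a1 above Cyp7b1 in 4 of 5, and Cyp7b1 was above Amacr in 3 of 5, so these neighbours changed places between livers. In TM5614, Cyp8b1 (522 ± 108 FPKM) stood above Slc27a5 (414 ± 40.9 FPKM) in 4 of 5 livers, with overlapping SD ranges, whereas Slc27a5 was above Cyp8b1 in 4 of 5 Chow livers. Cyp7a1 held the 7th place in Chow and the 9th in TM5614, at 31.4 ± 20.8 FPKM, below Cyp7b1 (63.9 ± 14.4) and Amacr (57.8 ± 3.13 FPKM).

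Ratios within a library do not depend on the library's scaling. They can still follow GC content and transcript length, which differ between Cyp7a1 (39.7% GC, 4172 bases) and Cyp8b1 (54.8% GC, 1950 bases). The part of these in the ratios was not tested. Cyp8b1 to Cyp7a1 compares enzymes within the classic pathway, and Cyp7b1 to Cyp7a1 sets the alternative pathway against the classic one. The ratio of Cyp8b1 to Cyp7a1 in FPKM was 6.89, 7.84, 7.11, 3.38 and 4.41 in the Chow replicates and 23.6, 26.5, 14.5, 33.6 and 9.43 in the TM5614 replicates. Every TM5614 liver was above every Chow liver. The share of all gene pairs whose ratio separates the groups was not computed, and 8.93% of single genes tested separated them in CPM. The mean log2 ratio was 2.50 ± 0.52 in Chow and 4.29 ± 0.74 in TM5614, a difference of 1.79, or 3.47-fold. The ratio of Cyp7b1 to Cyp7a1 was 0.779, 0.942, 1.33, 0.537 and 0.817 in Chow and 2.38, 3.39, 2.04, 4.69 and 1.01 in TM5614. Here TM5614 replicate 5 lay below Chow replicate 3, and the difference of the mean log2 ratios was 1.5, or 2.84-fold. Both ratios share Cyp7a1, whose own difference they contain, and they are given as descriptions without a test.

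**Figure D4:**
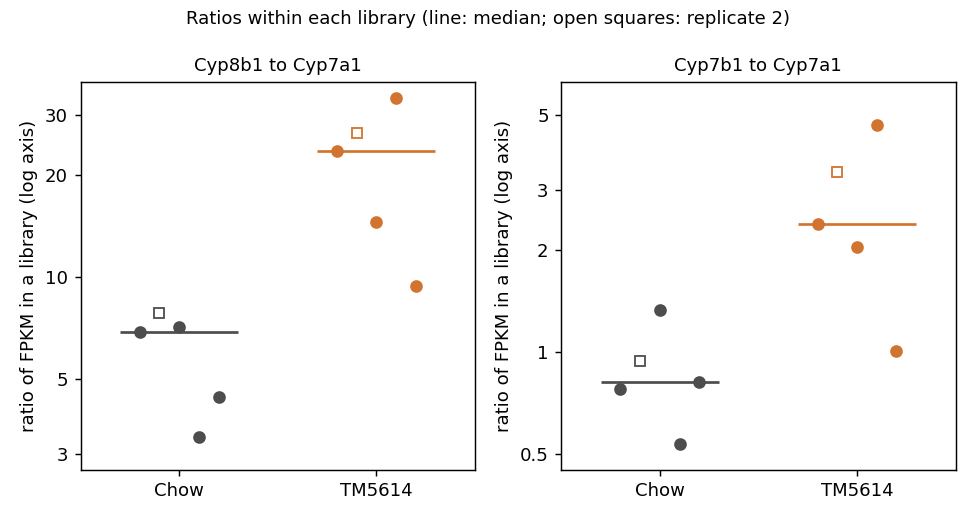
Ratio of Cyp8b1 to Cyp7a1 (left) and of Cyp7b1 to Cyp7a1 (right) in FPKM within each library, on log axes, with group medians as lines and replicate 2 as open squares. The Cyp8b1 ratio lies between 3.38 and 7.84 in Chow and between 9.43 and 33.6 in TM5614; the Cyp7b1 ratios of the groups overlap.

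Other enzymes and carriers of bile acid formation numbered 17 tested genes of 19 listed, and 0 were called higher and 4 lower in TM5614, beside backgrounds of 1.73% and 2.77% of all genes tested. Their median log2 fold change was -0.15. Cyp2c70, which makes the muricholic acids of the mouse, measured 188, 194, 177, 112 and 164 CPM in Chow and 88.9, 90.3, 48.7, 67.3 and 54.1 CPM in TM5614, without overlap. It fell by 1.26 on the log2 scale (SE 0.20, adjusted p = 0.00452 in edgeR). Akr1c6, a steroid dehydrogenase of the aldo-keto reductase family, was 970 ± 83.2 CPM in Chow and 605 ± 33.1 CPM in TM5614, and fell by 0.68 (SE 0.10, adjusted p = 0.00209). Both calls held under all 22 alternatives.

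The electron donors of the hydroxylases were the other two called lower. Fdx1, the ferredoxin that serves mitochondrial P450 enzymes such as Cyp27a1, fell by 0.47 on the log2 scale (SE 0.12, adjusted p = 0.0466 in edgeR). Por, the reductase that serves microsomal P450 enzymes such as Cyp7a1 and Cyp8b1, fell by 0.54 (SE 0.14, adjusted p = 0.0431). Both calls were lost without any one of Chow replicates 3, 4 and 5 and TM5614 replicates 1, 3 and 4, where 2 genes of the list were called. Fdx1 was lost also without TM5614 replicate 5 (adjusted p = 0.121), and Por also without Chow replicate 1 (0.0754) or TM5614 replicate 2 (0.0706). Por was lost also after correction for GC content and length (log2 fold change -0.36, adjusted p = 0.242), and over all 22 alternatives Fdx1 was lost in 9 and Por in 13. Without Chow replicate 2 the list had 7 calls, 5 lower and 2 higher (background 9.24%). The 3 added were Akr1c14, which fell by 0.79 (SE 0.09, adjusted p = 0.000275), and the peroxisomal thiolases Scp2 (log2 fold change 0.43, SE 0.12, adjusted p = 0.0377) and Acaa1b (0.74, SE 0.15, adjusted p = 0.00796), which rose; these genes are named after their values were seen.

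Of 27 listed regulators of bile acid synthesis, 25 were tested, and 1 was called higher and 1 lower, beside 1.73% and 2.77% of all genes tested. Insig2, which keeps the SREBP factors in the endoplasmic reticulum, rose from 151 ± 42.2 to 511 ± 95.9 CPM (log2 fold change 1.76, SE 0.20, adjusted p = 0.000549 in edgeR), with no overlap between groups. Srebf2, the SREBP factor of cholesterol synthesis, fell by 1.03 on the log2 scale (SE 0.17, adjusted p = 0.00471). Of the feedback loop, Nr1h4 (FXR) measured 192, 161, 168, 140 and 169 CPM in Chow and 131, 94.1, 130, 149 and 131 CPM in TM5614, with a log2 fold change of -0.38 (SE 0.13, adjusted p = 0.132). The other 4 loop genes did not pass the test either. Nr0b2 (SHP), the repressor induced by FXR, had a log2 fold change of -0.12 (SE 0.24, adjusted p = 0.793), with a positive sign in 4 of the 22 alternatives. Nr5a2 (LRH-1), an activator of Cyp7a1 and Cyp8b1, had 0.21 (SE 0.24, adjusted p = 0.644). The receptor pair for intestinal FGF15 gave -0.29 for Fgfr4 (SE 0.13, adjusted p = 0.246) and -0.02 for Klb (SE 0.18, adjusted p = 0.968, with a positive sign in 8 of the 22 alternatives).

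Clock factors are given because Cyp7a1 follows the time of day and the labels give no time of collection. Of 16 tested, 2 were called higher and 5 lower, 7 in all, beside 4.50% of all genes tested, and the median log2 fold change was -0.60. Dbp, an activator of Cyp7a1, measured 131, 277, 173, 170 and 143 CPM in Chow and 57.3, 33.1, 25.3, 44.9 and 65.0 CPM in TM5614. It fell by 1.99 on the log2 scale (adjusted p = 0.00179 in edgeR) without overlap between groups. Its relative Tef fell by 0.90 (adjusted p = 0.00733). Of the repressors of the loop, Per3 fell by 2.27 (adjusted p = 0.00195), Cry2 fell by 0.70 (adjusted p = 0.0271) and Per1 fell by 0.75 (adjusted p = 0.0304). Arntl (BMAL1) rose by 2.76 (adjusted p = 0.00659) and its partner Clock by 0.98 (0.00899). Without Chow replicate 2 there were 12 calls, 3 higher and 9 lower (background 9.24%). Cry2 and Per1 were lost without any one of Chow replicates 3 and 4 and TM5614 replicates 3 and 4 (5 calls each). Cry2 was lost also without TM5614 replicate 5 (adjusted p = 0.0679), and Per1 also without Chow replicate 5 (0.0595), TM5614 replicate 1 (0.0797) or TM5614 replicate 2 (0.0512) and after correction for GC content and length (log2 fold change -0.59, adjusted p = 0.0964). The part of the time of day in the values of Cyp7a1 was not tested.

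Among 14 tested transporters of 16 listed, 1 was called, beside 4.50% of all genes tested. Abcb4, which moves phosphatidylcholine into bile, rose from 337 ± 69.1 to 631 ± 98.2 CPM (log2 fold change 0.91, SE 0.17, adjusted p = 0.00851 in edgeR). Without Chow replicate 2 there were 3 calls, 1 higher and 2 lower (background 9.24%). One of the added was Slc10a1 (NTCP), the uptake carrier of conjugated bile acids, with a log2 fold change of -0.50 (SE 0.15, adjusted p = 0.0949) in all libraries and -0.56 (SE 0.14, adjusted p = 0.0291) without that library. The other was Abcc2, an export pump of organic anions; both are named after their values were seen.

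**Figure D5:**
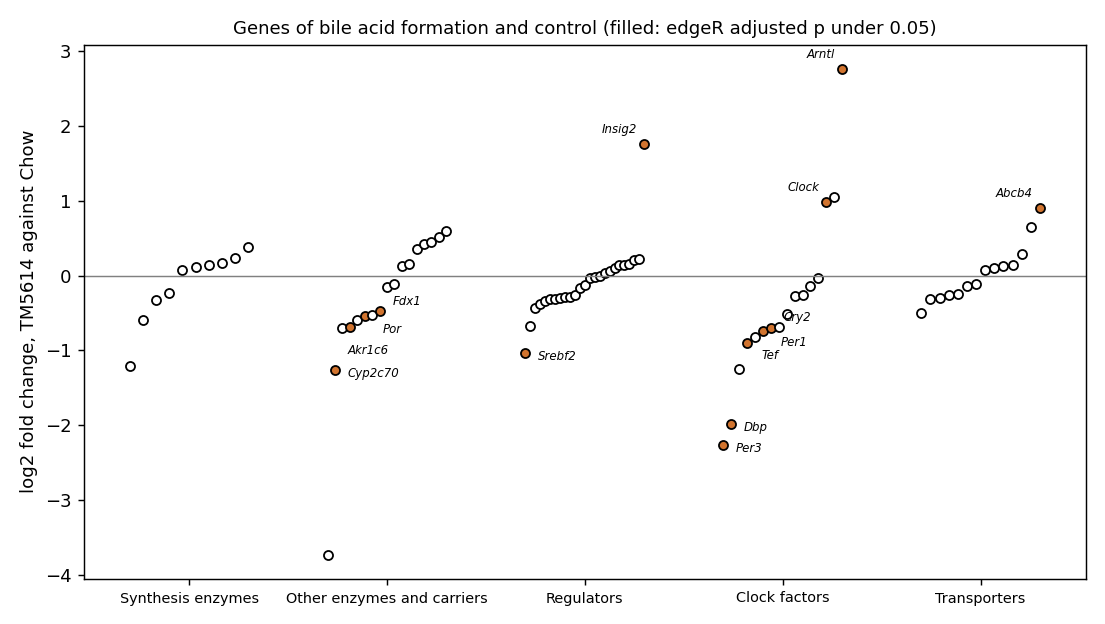
Log2 fold change, TM5614 against Chow, of each tested gene of the synthesis enzymes and of the 4 other lists, ordered by value within a list; filled circles have an edgeR adjusted p under 0.05 and are named. None of the 10 synthesis enzymes is filled. Filled are 4 of 17 other enzymes, 2 of 25 regulators, 7 of 16 clock factors and 1 of 14 transporters. Of all genes tested, 4.50% were called. The lowest open circle is Star at -3.73, which measured 99.5 CPM in Chow replicate 5 and 0.94 to 1.90 CPM in the other Chow livers.

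Markers of place and cell type moved in part with the groups. Of all genes tested, edgeR called 2.77% lower and 1.73% higher, 4.50% in all. Of 12 markers of pericentral hepatocytes, the zone where Cyp7a1 is known to be made, 4 were called lower (Cyp1a2, Lect2, Rgn and Gulo) and 1 higher (Axin2). Their summed level was 12500 to 18700 CPM in Chow and 12000 to 16800 CPM in TM5614, and none was at 0. None of 9 periportal markers was called (4970 to 9860 CPM in Chow and 8210 to 8660 CPM in TM5614). Of 12 acute phase genes 7 were called lower, beside 2.77% of all genes tested. The acute phase sums were 12800 to 18000 CPM in Chow and 10700 to 12900 CPM in TM5614. The 10 Kupffer cell markers had estimates below 0 with 0 calls in edgeR and in DESeq2, and sums of 83.4 to 264 CPM in Chow and 83.2 to 178 CPM in TM5614. Of the 8 endothelial, 8 stellate cell, 3 of 8 cholangiocyte and 1 of 5 erythroid markers that could be tested, 0 were called by edgeR or DESeq2. Of the 7 hepatocyte markers tested, edgeR called 0 and DESeq2 called 1 lower. DESeq2 also called 5 pericentral markers lower and 1 higher, 7 acute phase genes lower and 0 periportal markers, beside 8.14% of all genes tested. At an unadjusted p under 0.05 there were 8 of 12 pericentral markers and 8 of 12 acute phase genes, beside 20.4% of all genes tested. There were 1 of 8 endothelial, 2 of 8 stellate cell, 1 of 9 periportal and 1 of 7 hepatocyte markers. Of the 10 Kupffer cell, 3 cholangiocyte and 1 erythroid markers tested there were 0. Summed levels were 108 to 183 CPM in Chow and 111 to 190 CPM in TM5614 for endothelium, 220 to 403 and 339 to 623 CPM for stellate cells, 34.1 to 51.9 and 28.2 to 75.7 CPM for cholangiocytes, and 39.1 to 88.5 and 34.7 to 54.4 CPM for erythroid cells. Of the 5 erythroid markers, the 4 globin genes were at 0 in all libraries. The erythroid sum is therefore Alas2 alone, and the content of blood cells cannot be read from it. The highest stellate cell sum was in TM5614 replicate 2, where Des, which muscle also makes, was at 258 CPM against 1.47 to 7.57 CPM in the other 9 libraries. The part of these markers in the results for the enzymes was not tested.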

How the data were processed

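Poly(A) RNA libraries from liver (flash frozen per the labels; the study's methods name RNAlater) were sequenced as single-end reads, and per the study's methods the authors aligned them with STAR to mm10 and counted genes in RNA Express. Tool versions, gene annotation and use of strand are not given in the sources used here. Raw counts of reads for each gene symbol were deposited, together with FPKM, in which the authors divided counts by transcript length and a factor for the library. The deposited regularised log values and the authors' comparison table (fold changes and p-values) were not used. Groups and replicate numbers came from the sample titles. Genes were filtered with filterByExpr, scaled by TMM and tested with edgeR 4.0.16 (quasi-likelihood, two-sided) in R 4.3.3, without covariates, with Benjamini-Hochberg adjustment over 11092 genes and a threshold of 0.05. CPM are scaled by TMM, and FPKM served for levels and ratios between genes. DESeq2 1.42.0, limma 3.58.1 (voom, and log2 FPKM with a pseudocount of 1 or 0.1), other scalings and filters, an adjusted p of 0.01, a replicate block, each library left out, and a spline offset (5 degrees of freedom each) for GC content and transcript length, added after seeing the data, were the alternatives. Scripts were tested on simulated counts. Within groups, counts of all 20 pairs of libraries differed beyond sampling noise (chi-square per degree of freedom of at least 7.98). Gene positions are from GENCODE M21 (GRCm38), 1-based. Members and lists were chosen with earlier results of these data known, and 1 clock gene is not reported here. All 10 members were named; other listed genes were named where called, together with 5 genes of the feedback loop.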

Additional observations from a re-analysis of the deposited data

Results flagged for a closer look

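In 66 groups of 5 libraries examined, a lone library stood far from the other 4 of its group 6 times. Slc10a1 and Star were among the genes examined because their values had been seen, and the same libraries recur. The count is therefore not set against chance. Chow replicate 2 was such a library for Baat (270 CPM, the others 380 to 405 CPM), for Dbp (277 CPM, the others 131 to 173 CPM) and for Nr5a2 (23.3 CPM, the others 56.7 to 68.2 CPM). TM5614 replicate 2 was such a library for Klb (38.5 CPM, the others 49.1 to 51.0 CPM) and for Slc10a1 (463 CPM, the others 670 to 704 CPM). Star, the carrier that brings cholesterol into mitochondria, was at 99.5 CPM in Chow replicate 5 and at 0.94 to 1.90 CPM in the other 4 Chow livers.

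Signals outside the comparisons appeared in the same libraries. Acta1, the actin of skeletal muscle, had 9330 counts in TM5614 replicate 2 and 0 to 1 in the Chow livers. In CPM, Acta1 was at 1210 in TM5614 replicate 2, 22.2 in replicate 3, 1.6 in replicate 4, 0.616 in replicate 5 and 0 in replicate 1. Cyp11b1, an enzyme of adrenal steroid synthesis, had 443 counts in Chow replicate 5 and 0 to 4 in the other 9 libraries.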

How the results depend on the processing

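Of 637 values for single genes under an alternative, 576 kept their direction and their side of the threshold, as did 83 of 115 counts of calls within 1.5 times. Each of the 2 ratios, run under 11 alternatives (TMM-scaled CPM and each library left out), moved by less than 1 SD in all of them. That limit could not be passed. TMM-scaled CPM changes a ratio by the same factor in every library, and leaving out 1 of 5 libraries moves a group mean too little. The ratio runs therefore say nothing about how firm the ratios are. The 10 enzymes, with 0 calls, gave 1 in DESeq2, 2 in limma-voom, 2 with both replicates numbered 2 left out, 1 with GC content and length corrected, 1 with that correction and the replicate block, and 0 to 1 with each library left out (1 without Chow replicate 2, Akr1d1, and 1 without TM5614 replicate 5, Cyp7a1). The other enzymes (4 calls) gave 9 in limma-voom, 2 with library totals alone, 2 with no filter, 2 at an adjusted p of 0.01, 9 without both replicates 2, 7 with correction and block, and 2 to 7 with each library left out. Regulators (2) gave 4 in DESeq2 and 4 in limma-voom. Clock factors (7) gave 11 in DESeq2, 12 in limma-voom, without both replicates 2, and with correction and block, and 5 to 12 with each library left out. Transporters (1) gave 2 in DESeq2, 4 in limma-voom, 6 without both replicates 2, 3 with correction and block, and 1 to 3 with each library left out. The share of all genes tested that was called also moved, from 4.50% in the main fit to 8.14% in DESeq2 and 12.5% in limma-voom. That share was 11.1% without both replicates 2, 9.24% without Chow replicate 2 and 6.46% with GC content and length corrected. Without TM5614 replicate 5 it was 3.06%.

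Among the members and the other named genes, signs turned in 4 that were not called. Cyp7b1 gave -0.021 after GC correction, -0.026 with the block added and -0.023 to 0.198 with each library left out. Cyp39a1 gave -0.082 without both replicates 2. Nr0b2 gave 0.173 after GC correction, 0.169 with the block added and -0.264 to 0.008 with each library left out. Klb gave 0.028 with library totals, 0.016 with the replicate block, 0.012 and 0.015 in limma on log2(FPKM + 1) and log2(FPKM + 0.1), and -0.164 to 0.063 with each library left out. The cause of these differences was not tested. Deviations from the group mean of each gene were correlated between a Chow and a TM5614 library. For libraries of the same number r was 0.0316 to 0.318, over 0.1 in 3 of 5 pairs. Of 10 libraries, 3 had their highest r with their own number, so the numbers were not taken as pairs. With the replicate block 555 genes were called in place of 499, and 0 of the 10 enzymes. Por was lost with the block (adjusted p = 0.0543).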

Other observations

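Chow replicate 5 held transcripts of further steroid-making genes, looked up after Star was seen. Cyp11a1, the side-chain cleavage enzyme, was at 24.0 CPM there and at 0.431 CPM or less in the other 9 libraries. Cyp11b1 was at 40.8 CPM (0.574 or less elsewhere), Cyp21a1 at 30.2 CPM (0.772 or less) and Hsd3b1 at 44.3 CPM (0.287 or less). None of these genes belongs to the 10 enzymes.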
